A study of Mus musculus with 7 samples.

Results

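The genes described here encode the collagens, the laminins and a set of matrix proteins of the brain. They are every gene of the count table whose mouse symbol names a collagen chain or a laminin chain, plus Fn1, Tnc, Tnr, Vcan, Ncan, Bcan, Acan, Hapln1, Hapln4, Nid1, Nid2, Sparc, Hspg2 and Agrn, with at least 1 count in any library. That gave 69 of the 26286 genes in the table, made up of 44 collagen genes, 11 laminin genes and the 14 genes listed by name. The count rule left out 0 matching genes, since each had at least 1 read, and the lowest totals over the 7 libraries were 2 reads for Col25a1 and 3 reads each for Col13a1, Lamc3 and Col6a6. Genotype took no part in the rule.

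RNA was sequenced from cortical neurons of male C57BL/6 mouse embryos at E16.5, from 4 KAT7 mutant and 3 wild type animals. KAT7 is an enzyme that acetylates histones, and the labels do not give the mutant allele or any Cre driver. Both genotypes share the strain, sex, age and tissue, and the labels name no treatment. The labels do not say how the neurons were isolated, and each library is read as bulk RNA.

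Collagens are proteins of 3 chains wound into a helix, and fibrillar, network-forming and fibril-associated types build different structures. Laminins are assembled from an alpha, a beta and a gamma chain and, with collagen IV, nidogens, perlecan and agrin, form basement membranes such as the pial surface to which radial glia attach. The neural matrix itself is built on hyaluronan, which the lecticans (neurocan, versican, brevican and aggrecan) bind, link proteins stabilise and tenascins cross-link. Fibronectin is assembled by cells through integrins and is an early component of the embryonic cortical matrix.

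Libraries held 8272487 to 8813060 counts. Kat7 had 3, 4, 3 and 10 counts in KAT7 mutant replicates 1 to 4, against 869, 848 and 854 counts in wild type replicates 1 to 3. The 12 marker genes of cortical neurons were all tested, with summed levels of 10953 to 11633 CPM (counts scaled to a common library total) in KAT7 mutant libraries and 10985 to 11706 CPM in wild type libraries. Markers of meningeal fibroblasts, cells rich in fibrillar collagens, summed to 3.07 to 5.33 CPM in KAT7 mutant and 3.55 to 6.89 CPM in wild type libraries, with Slc6a13, Slc22a6 and Gjb6 at 0 counts in every library. Only 1 of these 13 markers, Islr, had enough reads to test, and it was not called. Of the untested ones, Dcn had 5, 1, 5 and 2 counts in KAT7 mutant and 17, 11 and 10 in wild type. Crabp2 had 11, 8, 0 and 2 counts in KAT7 mutant and 3, 2 and 1 in wild type. Markers of radial glia summed to 496 to 544 CPM in KAT7 mutant and 745 to 772 CPM in wild type libraries, and 7 of 11 tested fell. Ptprz1 gave a large part of this sum, with means of 280 CPM in KAT7 mutant and 457 CPM in wild type. The other 4 tested, Fabp7, Notch1, Hopx and Sox2, were not called. Endothelial markers summed to 19.7 to 22.9 CPM in KAT7 mutant and 25.1 to 29.3 CPM in wild type libraries, with 3 of 7 tested lower and Emcn and Tie1 at 0 counts. Pericyte and smooth muscle markers summed to 29.9 to 35.0 CPM in KAT7 mutant and 35.1 to 39.6 CPM in wild type libraries, with 2 of 6 tested lower. Microglia markers summed to 27.6 to 36.3 CPM in KAT7 mutant and 17.6 to 20.7 CPM in wild type libraries, with 4 of 6 tested higher. Beside these marker counts, 28.9% of all tested genes were called in either direction.

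Many of the matrix genes with enough reads to test fell in KAT7 mutant neurons, and few rose. Fn1, the laminin chains Lama2 and Lamb1, the tenascins Tnc and Tnr and a run of fibril-associated collagens fell, while Col23a1, Col5a1 and Vcan rose. Of the 69 genes, 44 passed the filter on low counts. A gene can pass that filter through the genotype in which it is high, so counts and medians over the 44 are a description. With the edgeR quasi-likelihood test and Benjamini-Hochberg adjusted p-values over all 13681 tested genes, the calls were 19 of the 44 lower and 3 higher in KAT7 mutant at an adjusted p under 0.05, leaving 22 not called. Over all tested genes 28.9% were called, 15.8% lower and 13.1% higher, whereas 43.2% of these 44 were lower and 6.82% higher. By size, 12 of the 44 were called lower and 2 higher with a change of at least 2-fold, against 518 lower and 150 higher of all 13681 tested genes. The median log2 fold change was -0.34 over the 44, against 0.0025 over all tested genes. The CPM of the genotypes did not overlap for 25 of the 44 (21 lower and 4 higher in KAT7 mutant), against 35.3% of all tested genes in either direction.

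**Figure D1:**
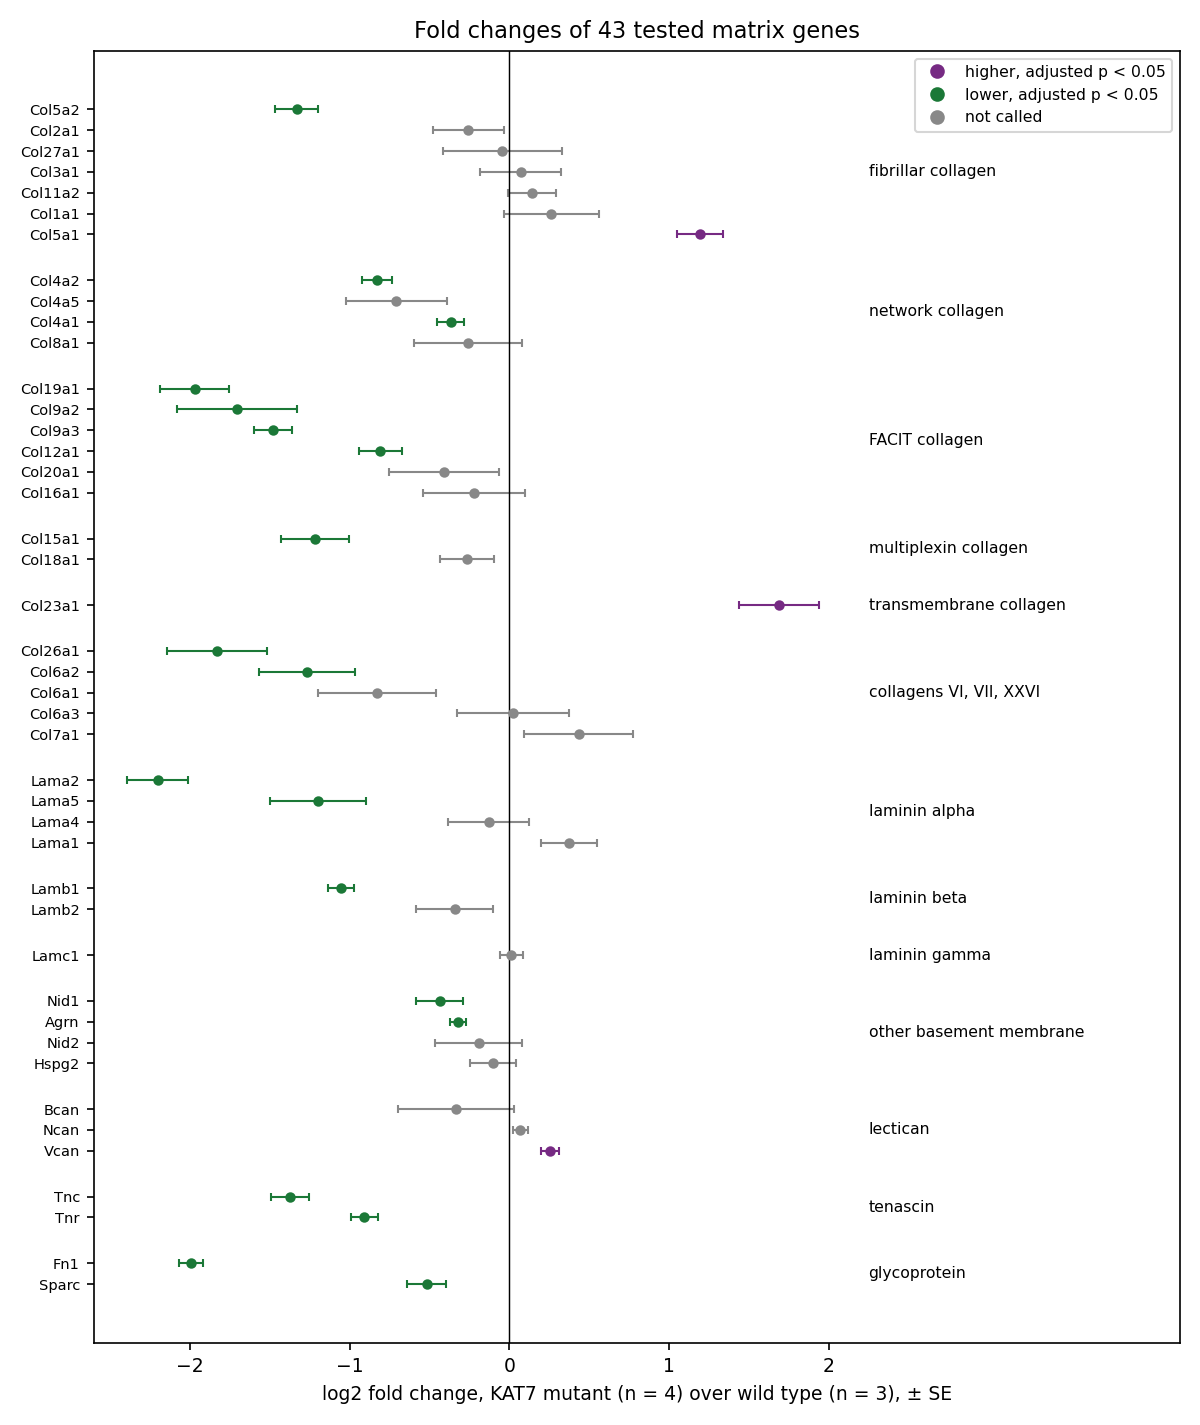
Log2 fold change of KAT7 mutant (n = 4) over wild type (n = 3) with its standard error for 43 of the 44 tested genes, grouped by the type of protein. The FACIT collagens, tenascins, Fn1 and Sparc lie left of 0, whereas Col5a1, Col23a1 and Vcan are the 3 genes called higher.

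Matrix transcripts made up a smaller share of the RNA in KAT7 mutant neurons. The 69 genes together took 0.174% ± 0.00382 of all counts in KAT7 mutant (SD, n = 4) and 0.211% ± 0.00360 in wild type (SD, n = 3). Summed over chains, collagens stood at 140 ± 7.78 CPM in KAT7 mutant and 202 ± 4.18 CPM in wild type, and laminins at 94.7 ± 4.26 CPM in KAT7 mutant and 135 ± 0.412 CPM in wild type. In these bulk samples, fewer cells of a type and less RNA per cell cannot be told apart.

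A few genes supplied most of these reads. Ncan gave 46.4% ± 0.429 of the matrix counts in KAT7 mutant and 36.8% ± 0.456 in wild type, and Agrn gave 17.0% ± 0.746 in KAT7 mutant and 17.7% ± 0.797 in wild type. Vcan gave 14.6% ± 0.448 in KAT7 mutant and 10.2% ± 0.617 in wild type. The share of Fn1 was lower in KAT7 mutant, at 3.53% ± 0.441, than in wild type, at 11.7% ± 0.356. The 65 other genes together gave 18.5% ± 0.751 in KAT7 mutant and 23.6% ± 0.400 in wild type. These are shares of a matrix total that was itself smaller in KAT7 mutant, at 14801 ± 380 counts against 18221 ± 709 in wild type. A higher share is therefore not a higher level: Ncan had means of 812 CPM in KAT7 mutant and 774 CPM in wild type and was not called. Agrn, with similar shares in both genotypes, was called lower (297 CPM in KAT7 mutant and 371 CPM in wild type).

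Per kilobase of deposited gene length, the order of levels changed with genotype. In CPM per kilobase (RPKM), Ncan was the most abundant at 113 ± 2.45 in KAT7 mutant and 108 ± 3.00 in wild type, followed by Agrn at 43.4 ± 2.13 in KAT7 mutant and 54.2 ± 1.75 in wild type. The third place over all libraries was held by Fn1, at 7.45 ± 1.05 RPKM in KAT7 mutant and 29.7 ± 1.18 in wild type, and the fourth by Vcan, at 17.4 ± 0.915 RPKM in KAT7 mutant and 14.6 ± 1.12 in wild type. Fn1 thus lay below Vcan in KAT7 mutant and above it in wild type. Sparc (9.32 ± 1.99 RPKM in KAT7 mutant and 13.4 ± 1.27 in wild type) came next. Lamb1, Col9a3, Lamc1, Tnr and Tnc, which completed the 10 highest, had between 3.39 and 6.00 RPKM in KAT7 mutant and between 5.95 and 10.6 RPKM in wild type. This order is by the mean over all 7 libraries: Col4a1, the next gene, had 4.82 RPKM in KAT7 mutant, above Tnr, Col9a3 and Tnc there, and 6.22 RPKM in wild type, above Lamc1. Within wild type, Tnr (8.12 ± 0.208 RPKM) and Tnc (8.78 ± 1.21 RPKM) differed by less than the spread of Tnc between libraries.

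**Figure D2:**
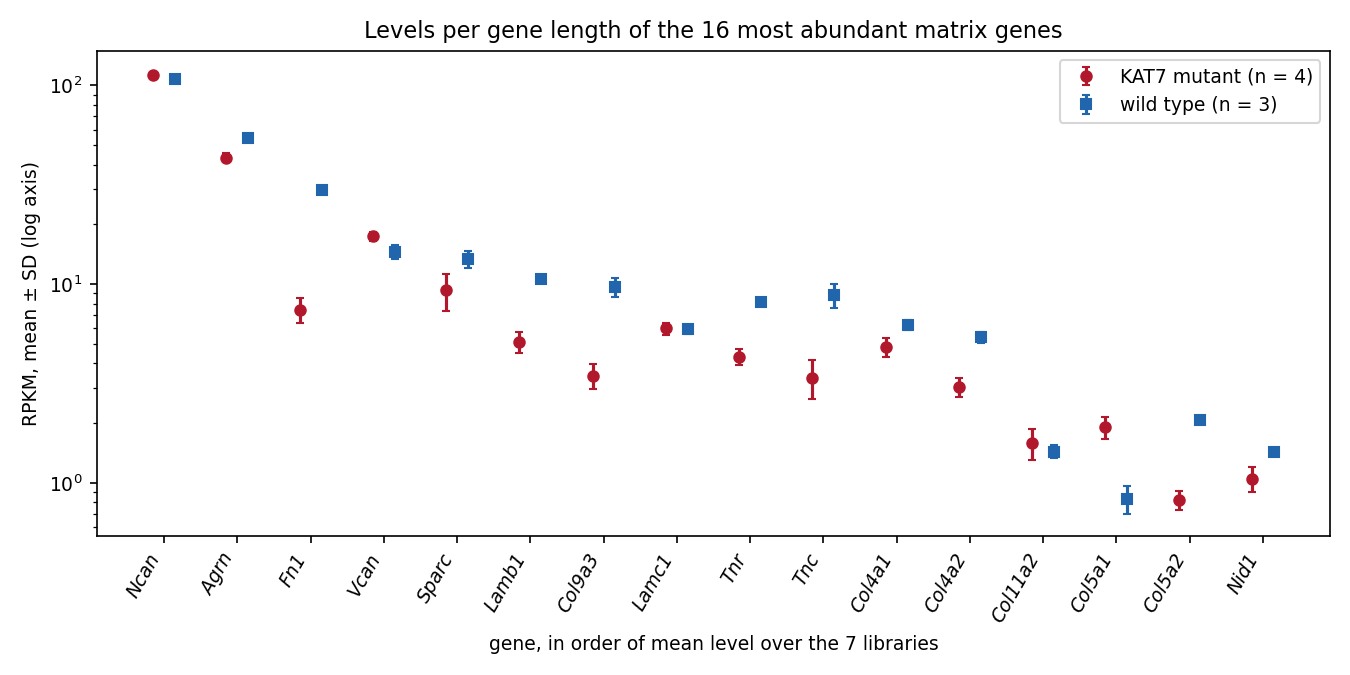
Mean RPKM with its SD on a log axis for the 16 most abundant matrix genes, in order of the mean over the 7 libraries, with KAT7 mutant (n = 4) left of wild type (n = 3) for each gene. Ncan lies above 100 RPKM in both genotypes, and Fn1 is the third gene in wild type but falls below Vcan in KAT7 mutant.

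Fibronectin had a large fall from a high level. Fn1, which encodes fibronectin, had 51.5, 71.0, 58.2 and 66.9 CPM in KAT7 mutant replicates 1 to 4, against 250.3, 236 and 254 CPM in wild type replicates 1 to 3. Every KAT7 mutant library lay far below the lowest wild type library. The log2 fold change was -1.996 ± 0.075 (SE), a level 3.99-fold lower in KAT7 mutant, with an edgeR adjusted p of 1.57e-13. Sparc, a collagen-binding matricellular glycoprotein, had 16.7, 26.0, 24.7 and 18.3 CPM in KAT7 mutant, against 27.4, 31.7 and 33.0 CPM in wild type. The genotypes did not overlap, although KAT7 mutant replicate 2 came near wild type replicate 1, and the log2 fold change was -0.52 ± 0.12 (edgeR adjusted p = 0.00349).

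Both tenascins fell, while of the 3 tested lecticans, which they cross-link, 1 rose and 0 fell. The share of lecticans called, 33.3%, was near the 28.9% over all tested genes. The difference between tenascins and lecticans was not tested. Tnc, which encodes tenascin-C, a glycoprotein of progenitor zones, had 19.5, 18.4, 29.5 and 25.3 CPM in KAT7 mutant, against 52.4, 68.8 and 58.9 CPM in wild type. The log2 fold change was -1.37 ± 0.12 (edgeR adjusted p = 4.00e-08). The KAT7 mutant libraries were all lower than the lowest wild type library. Tnr, which encodes the neural tenascin-R, had 23.4, 24.5, 20.2 and 25.3 CPM in KAT7 mutant, against 45.1, 43.1 and 43.2 CPM in wild type. This was a log2 fold change of -0.91 ± 0.08 (edgeR adjusted p = 7.13e-08), again with no overlap. Tnr is known from oligodendrocyte lineage cells as well as neurons. Of 6 tested markers of that lineage 4 rose and 0 fell, which is 66.7% called against 28.9% of all tested genes. Markers of the lineage had summed levels of 32.8 to 50.6 CPM in KAT7 mutant and 26.0 to 31.2 CPM in wild type. The part of either cell type in the level of Tnr was not tested. The part of radial glia, whose markers were lower in summed level in KAT7 mutant, in the fall of Tnc was not tested.

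Among the lecticans, Vcan, which encodes the chondroitin sulfate proteoglycan versican, rose slightly. It had 255, 253, 242 and 274 CPM in KAT7 mutant, against 200.3, 209.9 and 232 CPM in wild type, a log2 fold change of 0.26 ± 0.06 (edgeR adjusted p = 0.00193). The lowest KAT7 mutant library lay just above the highest wild type library. Ncan, which encodes neurocan, had 814, 823, 787 and 826 CPM in KAT7 mutant, against 757, 768 and 798 CPM in wild type. These overlapped, and Ncan was not called (0.07 ± 0.04, edgeR adjusted p = 0.267). Bcan, which encodes brevican, a lectican of the maturing brain, had few reads, with 1.29, 0.696, 1.42 and 0.611 CPM in KAT7 mutant and 1.42, 1.26 and 1.13 CPM in wild type (-0.33 ± 0.36, edgeR adjusted p = 0.535). Acan, which encodes aggrecan, had too few reads to test, with 9, 3, 3 and 0 counts in KAT7 mutant and 6, 5 and 2 counts in wild type.

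Link protein transcripts were scarce beside those of the lecticans. Hapln1 had 0, 1, 1 and 0 counts in KAT7 mutant and 2, 1 and 1 counts in wild type, and Hapln4 had 7, 6, 6 and 6 counts in KAT7 mutant and 5, 1 and 3 counts in wild type. Neither was tested. In the protein-coding gene order of the mouse genome Hapln1 neighbours Vcan and Hapln4 neighbours Ncan, so each of these abundant lectican genes lay beside a link protein gene with few reads in both genotypes.

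Among laminin chains, Lama2, Lama5 and Lamb1 fell. Of 8 tested laminin genes 3 fell, 0 rose and 5 were not called, so that 37.5% were called, against 28.9% of all tested genes. Lama2, which encodes the alpha chain of merosin and is mutated in a congenital muscular dystrophy, had the lowest log2 fold change of the 44 genes. Its values were 1.52, 2.43, 3.07 and 1.83 CPM in KAT7 mutant, against 9.86, 9.96 and 10.97 CPM in wild type, with all KAT7 mutant libraries well below the wild type ones. The log2 fold change was -2.20 ± 0.19 (edgeR adjusted p = 3.26e-08).

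Lama5, an alpha chain of many basement membranes, was lower as well, with 0.935, 1.85, 0.709 and 1.22 CPM in KAT7 mutant against 2.49, 2.52 and 3.17 CPM in wild type (-1.197 ± 0.301, edgeR adjusted p = 0.0049). Lama1, the alpha chain of laminin-111, was not called (0.37 ± 0.17, edgeR adjusted p = 0.118), although its 5.38 to 5.73 CPM in KAT7 mutant lay above its 3.66 to 5.22 CPM in wild type. Lama4, an alpha chain of vessels, had a log2 fold change of -0.13 ± 0.26 and was not called. Lama3, an alpha chain of epithelia, had 1, 0, 1 and 1 counts in KAT7 mutant and 3, 2 and 1 counts in wild type.

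The beta and gamma chains that pair in most laminins parted. Lamb1, the most abundant laminin gene per length in wild type, had 32.8, 32.1, 24.9 and 28.5 CPM in KAT7 mutant, against 59.5, 61.7 and 63.1 CPM in wild type, with a wide gap between the genotypes. Its log2 fold change was -1.05 ± 0.08 (edgeR adjusted p = 7.63e-09). Lamc1, which encodes the gamma chain of most laminins, had 41.6, 47.5, 48.8 and 45.0 CPM in KAT7 mutant, against 46.3, 47.0 and 42.7 CPM in wild type. The groups lay on top of each other, with a log2 fold change of 0.01 ± 0.07. Counts per base of Lamb1 over Lamc1 were 0.674 to 1.04 in KAT7 mutant and 1.69 to 1.95 in wild type, so that Lamb1 was the higher of the pair in all 3 wild type libraries and in 1 of 4 KAT7 mutant libraries. Lamb2 was not called (-0.34 ± 0.24), and Lamb3 and Lamc3 had too few reads to test.

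**Figure D3:**
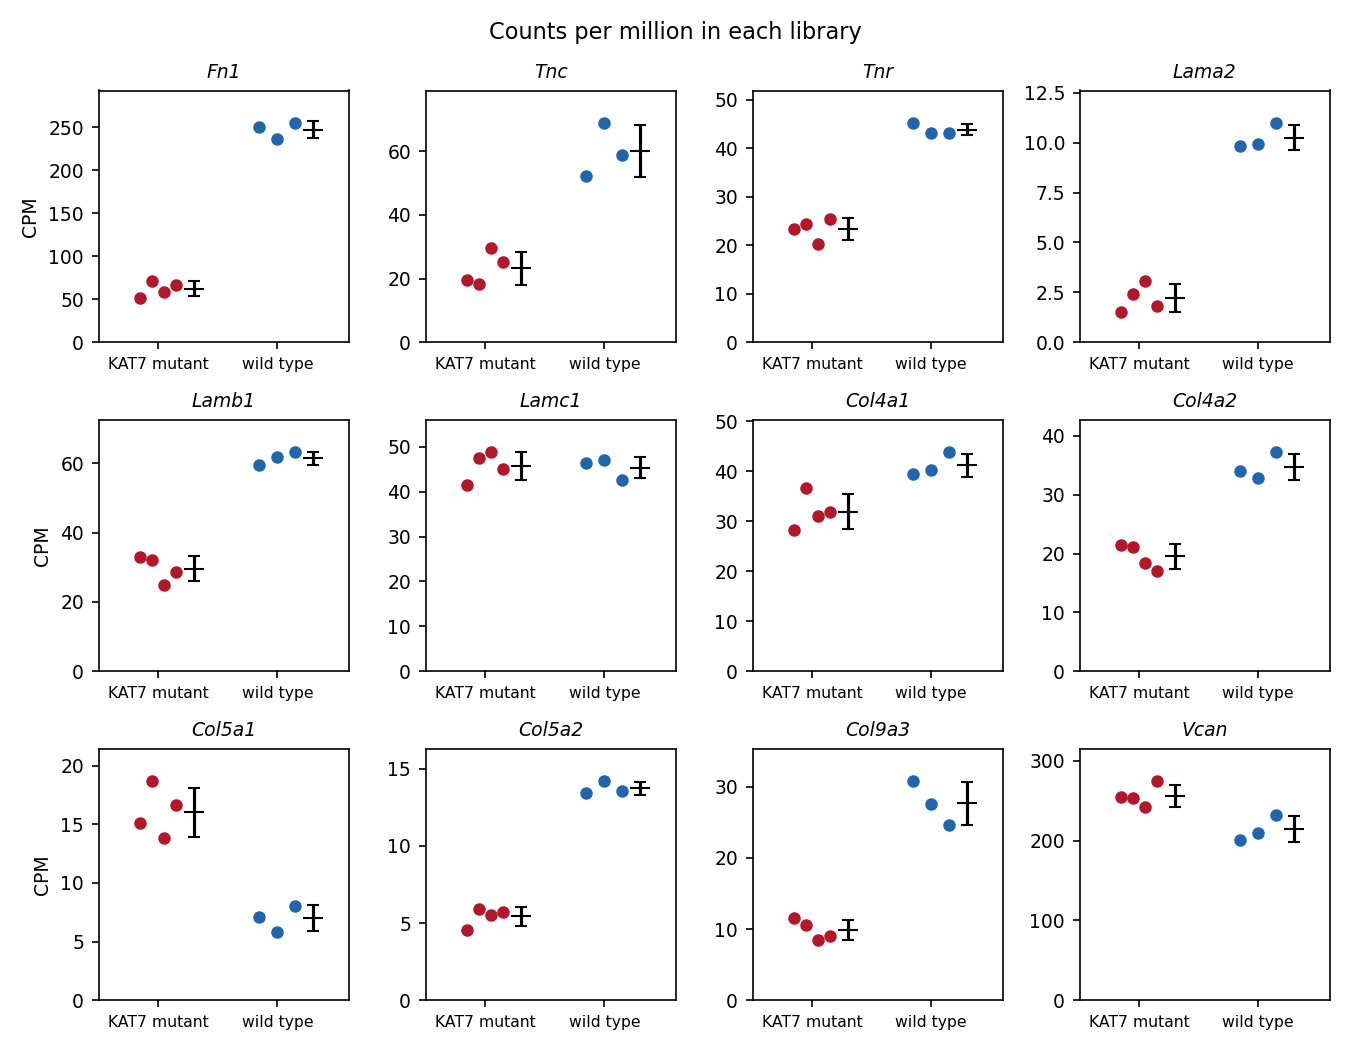
CPM of 12 matrix genes in each library, with KAT7 mutant replicates 1 to 4 left of wild type replicates 1 to 3, and the mean ± SD beside each group. The genotypes overlap for Lamc1, do not overlap for the other 11 genes, and stand in opposite order for Col5a1 and Col5a2. These 11 are all called genes, so their lack of overlap follows from the choice. CPM did not overlap for 35.3% of all tested genes.

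Of the 4 other basement membrane genes, all tested, Agrn and Nid1 fell modestly and Nid2 and Hspg2 were not called. Agrn, which encodes the heparan sulfate proteoglycan agrin, had 307, 282, 286 and 311 CPM in KAT7 mutant, against 384, 367 and 362 CPM in wild type (-0.32 ± 0.05, edgeR adjusted p = 5.37e-05). Nid1, which encodes nidogen-1, a linker of laminin and collagen IV, had 5.49 to 7.32 CPM in KAT7 mutant and 8.24 to 8.82 CPM in wild type. Its log2 fold change of -0.44 ± 0.15 was called (edgeR adjusted p = 0.0312), but the call was lost in DESeq2 and without wild type replicate 1, 2 or 3 or KAT7 mutant replicate 1 or 2, with adjusted p of 0.0202 to 0.116 over all alternatives. Nid2 (-0.19 ± 0.27) and Hspg2, which encodes perlecan (-0.10 ± 0.14), were not called.

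The collagen IV genes Col4a1 and Col4a2, whose chains form the network of every basement membrane, both fell. Col4a1 had 28.2, 36.6, 31.1 and 31.8 CPM in KAT7 mutant, against 39.4, 40.3 and 43.8 CPM in wild type (-0.37 ± 0.09, edgeR adjusted p = 0.00279). Col4a2 had 21.4, 21.1, 18.4 and 17.1 CPM in KAT7 mutant, against 34.1, 32.8 and 37.2 CPM in wild type (-0.83 ± 0.09, edgeR adjusted p = 1.21e-06). Neither gene overlapped between genotypes. Counts per base of Col4a1 over Col4a2 were 1.28, 1.69, 1.64 and 1.80 in KAT7 mutant and 1.12, 1.19 and 1.14 in wild type, with KAT7 mutant replicate 1 nearest to wild type.

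These collagen IV genes stand head to head on mouse chromosome 8, and their promoter windows are shown because the windows overlap. Each window runs from 250 bases before to 50 bases after the RefSeq start of the gene (build GRCm38.p6), 300 bases in all, at chr8:11312777-11313076 on the minus strand for Col4a1 and chr8:11312555-11312854 on the plus strand for Col4a2. They share 78 bases, chr8:11312777-11312854. Capitals mark GGGCGG (GC box), CCAAT and TATAAA on either strand. In Col4a1 the search found 1 GC box and 1 CCAAT, and in Col4a2 it found 3 GC boxes and 1 CCAAT, with 0 TATAAA and 0 overlapping matches in both.
Col4a1: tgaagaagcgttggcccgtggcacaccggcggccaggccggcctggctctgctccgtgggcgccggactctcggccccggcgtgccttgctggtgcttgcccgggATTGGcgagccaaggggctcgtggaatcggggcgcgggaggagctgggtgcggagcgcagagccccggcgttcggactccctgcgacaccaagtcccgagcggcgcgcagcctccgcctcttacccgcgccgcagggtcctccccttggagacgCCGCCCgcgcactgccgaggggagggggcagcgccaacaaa
Col4a2: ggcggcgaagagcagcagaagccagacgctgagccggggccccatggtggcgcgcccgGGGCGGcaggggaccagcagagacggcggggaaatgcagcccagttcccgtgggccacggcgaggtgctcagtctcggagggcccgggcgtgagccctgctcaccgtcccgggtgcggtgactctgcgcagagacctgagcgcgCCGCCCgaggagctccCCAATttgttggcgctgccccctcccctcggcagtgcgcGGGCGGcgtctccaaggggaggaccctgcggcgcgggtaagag

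Markers of endothelial cells and pericytes, which surround themselves with collagen IV, were lower in summed level in KAT7 mutant, as given above, but the markers differed. Of the endothelial markers 3 were lower (Slco1c1, Slc2a1 and Ramp2). The 4 not called, Pecam1, Kdr, Flt1 and Esam, had log2 fold changes of 0.97, 0.10, -0.14 and 0.002. Of the pericyte and smooth muscle markers 2 were lower (Pdgfrb and Notch3) and 4 were not called. The part of these cells in the falls of Col4a1 and Col4a2 was not tested. Col4a5, a further network chain, was lower in every KAT7 mutant library (0.734 to 1.64 CPM) than in any wild type library (1.70 to 2.63 CPM) but was not called (-0.71 ± 0.32, edgeR adjusted p = 0.101). Col8a1, a short-chain network collagen, overlapped (-0.26 ± 0.34). Col4a3, Col4a4, Col4a6, Col8a2 and Col10a1 had too few reads to test.

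Fibrillar collagens were scarce, and within collagen V the chains moved in opposite directions. Col5a1 had 15.1, 18.7, 13.8 and 16.6 CPM in KAT7 mutant, against 7.12, 5.84 and 8.03 CPM in wild type, and rose by 1.196 ± 0.143 on the log2 scale (edgeR adjusted p = 2.49e-06). Col5a2, which encodes the chain that joins the Col5a1 product in collagen V, had 4.56, 5.91, 5.55 and 5.75 CPM in KAT7 mutant, against 13.4, 14.2 and 13.6 CPM in wild type. Its log2 fold change was -1.33 ± 0.13 (edgeR adjusted p = 2.38e-07). Neither gene overlapped between genotypes. Counts per base of Col5a1 over Col5a2 were 2.60, 2.49, 1.96 and 2.28 in KAT7 mutant and 0.418, 0.324 and 0.466 in wild type, above 1 in all 4 KAT7 mutant libraries and below 1 in all 3 wild type libraries.

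**Figure D4:**
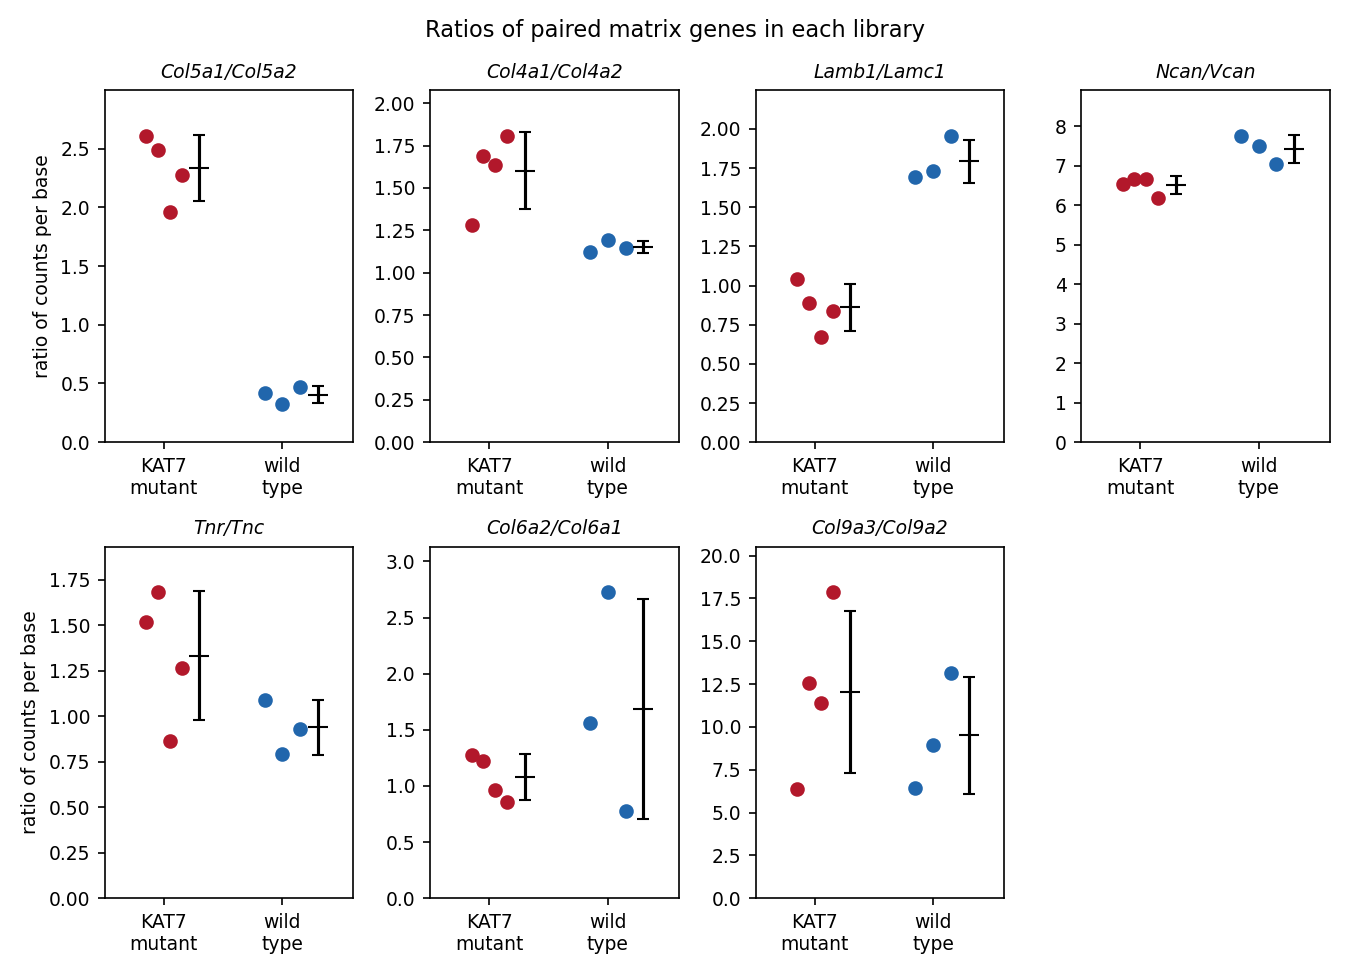
Ratio of counts per base of deposited gene length for 7 pairs of matrix genes in each library, with KAT7 mutant replicates 1 to 4 left of wild type replicates 1 to 3 and the mean ± SD beside each group. The genotypes overlap for 3 pairs (Tnr over Tnc, Col6a2 over Col6a1 and Col9a3 over Col9a2) and not for the other 4, of which Col5a1 over Col5a2 shows the widest gap, at 1.96 to 2.60 in KAT7 mutant and 0.324 to 0.466 in wild type.

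The other tested fibrillar genes were not called. Col1a1, Col3a1 and Col2a1, the main chains of collagens I, III and II, had means of 1.89, 2.54 and 3.27 CPM in KAT7 mutant and 1.57, 2.42 and 3.92 CPM in wild type, with log2 fold changes of 0.26 ± 0.30, 0.07 ± 0.25 and -0.26 ± 0.22. Col11a2 had 8.92 ± 1.57 CPM in KAT7 mutant and 8.07 ± 0.588 CPM in wild type (0.14 ± 0.15), and Col27a1 was also not called (-0.05 ± 0.37). Col3a1 neighbours Col5a2 on chromosome 1, and the log2 fold change of Col5a2 was -1.33. Col1a2, Col5a3, Col11a1 and Col24a1 were not tested. Col11a1 had 1, 2, 3 and 3 counts in KAT7 mutant, below its 8, 5 and 10 counts in wild type.

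The promoter windows of Lama2, which had the largest fall, and Col5a1, which rose, are shown as contrasting examples of base composition. The observed-to-expected CpG ratio was 0.0527 in Lama2 and 0.809 in Col5a1. Lama2 had the lowest ratio of the 14 genes with a window that fell. The highest of those 14 was 0.902, in Col4a1, above that of Col5a1. The Lama2 window lies at chr10:27616893-27617192 on the minus strand and the Col5a1 window at chr2:27886175-27886474 on the plus strand (RefSeq, GRCm38.p6). Capitals mark the same motifs, of which the search found 1 GC box in Lama2 and 2 in Col5a1.
Lama2: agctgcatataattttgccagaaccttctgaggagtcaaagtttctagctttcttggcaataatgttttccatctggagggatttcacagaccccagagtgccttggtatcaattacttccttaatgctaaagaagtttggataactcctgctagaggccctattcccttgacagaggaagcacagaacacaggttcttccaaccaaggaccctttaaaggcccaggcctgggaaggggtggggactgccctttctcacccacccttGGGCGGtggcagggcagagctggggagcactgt
Col5a1: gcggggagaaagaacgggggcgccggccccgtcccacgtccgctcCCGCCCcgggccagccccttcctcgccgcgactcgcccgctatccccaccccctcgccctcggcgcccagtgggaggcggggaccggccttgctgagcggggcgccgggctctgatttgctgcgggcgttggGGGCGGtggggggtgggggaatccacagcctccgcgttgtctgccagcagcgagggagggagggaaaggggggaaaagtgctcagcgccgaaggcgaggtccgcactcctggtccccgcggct

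RefSeq windows were matched for 51 of the 69 genes, as 57 windows, and for 32851 windows over all genes. GGGCGG was in 63.2% of the 57 windows and in 35.7% of all windows, CCAAT in 31.6% of the 57 and 37.4% of all, and TATAAA in 14.0% of the 57 and 13.6% of all. Counted by gene, with a match in any window of the gene, GGGCGG was in 33 of the 51 genes. By call, it was in 10 of the 14 genes with a window that fell, in all 3 that rose and in 10 of 15 that were not called. These counts of genes have no counterpart over all genes and are not comparable with the shares of windows. The median CpG ratio, with the first window of each gene, was 0.471 in the 51 genes, against 0.389 over 27025 genes. It was 0.602 in the 14 that fell, 0.700 in the 3 that rose, 0.538 in the 15 not called and 0.374 in the 19 not tested. These are descriptions of letters in a window and carry no statement on any factor.

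Collagens that associate with fibrils (FACIT collagens) held several large falls. Of 6 tested FACIT genes 4 fell, 0 rose and 2 were not called, with a median log2 fold change of -1.14, and of 7 tested fibrillar genes 1 fell and 1 rose, with a median of 0.07. These are 66.7% and 28.6% called, against 28.9% of all tested genes. The difference between these types was not tested. Col9a3, a chain of collagen IX and the most abundant FACIT gene, had 11.6, 10.6, 8.39 and 9.05 CPM in KAT7 mutant, against 30.8, 27.6 and 24.7 CPM in wild type. All KAT7 mutant libraries lay below the wild type ones (-1.48 ± 0.12, edgeR adjusted p = 1.16e-08). Its exons share 234 bases with those of Tcfl5 on the opposite strand, so reads of the pair cannot be fully separated.

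Col9a2, another chain of collagen IX, had 1.75, 0.812, 0.709 and 0.489 CPM in KAT7 mutant, against 4.63, 2.98 and 1.81 CPM in wild type. The lowest wild type library came close to the highest KAT7 mutant library (-1.71 ± 0.38, edgeR adjusted p = 0.00175). Col9a1, the third chain, had 3 to 10 counts in KAT7 mutant and 3 to 9 counts in wild type and was not tested. Col19a1, a FACIT collagen linked to synapse formation in the mouse, had 2.10, 3.13, 2.01 and 1.96 CPM in KAT7 mutant, against 10.6, 10.2 and 6.56 CPM in wild type, without overlap. Its log2 fold change was -1.97 ± 0.21 (edgeR adjusted p = 7.06e-07). Col12a1 had 6.66 ± 0.467 CPM in KAT7 mutant and 11.7 ± 1.25 CPM in wild type (-0.81 ± 0.13, edgeR adjusted p = 0.000123). Col16a1 (-0.22 ± 0.32) and Col20a1 (-0.41 ± 0.34) were not called, and Col14a1 and Col22a1 were not tested.

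Other collagen types held single large changes. Col23a1, a transmembrane collagen, had 4.79, 4.17, 3.90 and 5.14 CPM in KAT7 mutant, against 1.07, 1.14 and 1.92 CPM in wild type. It was the largest rise of the 44 genes (1.69 ± 0.25, edgeR adjusted p = 4.05e-05), and the genotypes were well apart. Col26a1 had 1.29, 1.51, 1.30 and 0.245 CPM in KAT7 mutant, against 4.39, 3.89 and 3.51 CPM in wild type, with KAT7 mutant replicate 4 the lowest (-1.83 ± 0.31, edgeR adjusted p = 0.000155). Col15a1, a basement membrane collagen of the multiplexin type, had 1.75, 1.97, 1.77 and 2.08 CPM in KAT7 mutant, against 4.39, 4.23 and 4.64 CPM in wild type (-1.22 ± 0.21, edgeR adjusted p = 0.000179). The groups were tight and apart. Col18a1, the related multiplexin that yields endostatin, was lower in every KAT7 mutant library (4.03 to 4.52 CPM) than in any wild type library (4.75 to 5.43 CPM), but was not called (-0.26 ± 0.17, edgeR adjusted p = 0.263).

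Of the collagen VI genes, whose chains form beaded microfibrils, Col6a2 had 0.701, 0.927, 1.06 and 0.978 CPM in KAT7 mutant, against 2.26, 2.63 and 1.81 CPM in wild type (-1.27 ± 0.30, edgeR adjusted p = 0.00322). Its neighbour Col6a1 overlapped between genotypes and was not called (-0.83 ± 0.37, edgeR adjusted p = 0.101), but was called without wild type replicate 2 (-1.09, edgeR adjusted p = 0.049). Col6a3 (0.02 ± 0.35) and Col7a1, which encodes the anchoring fibril collagen (0.43 ± 0.34), were not called. The transmembrane collagens Col13a1, Col17a1 and Col25a1, and Col6a4, Col6a5, Col6a6 and Col28a1, were not tested. Altogether 25 of the 69 genes did not pass the filter, with totals of 2 to 49 reads over the 7 libraries and at most 12 in one library. When all 69 genes were fitted without a filter, 1 of these 25 was called, Col11a1, which was lower in KAT7 mutant (-1.68 ± 0.58, edgeR adjusted p = 0.0224), and the other 24 were not called at this depth.

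Of 11 pairs of the 69 genes that are neighbours in the protein-coding gene order, 4 had both genes tested, and Col4a1 with Col4a2 was the 1 pair with both called. Taken singly, 28.9% of all tested genes were called. The share of neighbouring pairs with both called was not counted over all genes, so this pair count is a description. By exon overlap in the GENCODE annotation, Fn1, Lama2, Tnc, Tnr, Nid1, Col15a1, Col4a1, Col4a2, Col5a1 and Col9a3 are the called genes that share bases with a gene on the opposite strand. The strand setting of the counts is not given, and reads of such partners cannot be told apart.

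Genes that act on the matrix changed in both directions, as did all tested genes, of which 15.8% were called lower and 13.1% higher. Of 24 tested genes for collagen modification and secretion, 5 fell and 3 rose, with a median log2 fold change of -0.11. That is 33.3% called, against 28.9% of all tested genes. Loxl1, a lysyl oxidase of elastic fibres, fell by 1.73, P3h4, a partner of collagen lysyl hydroxylation, by 1.36 and Tll1, a procollagen-processing protease, by 1.10 on the log2 scale, while P4ha3, a collagen prolyl hydroxylase subunit, rose by 1.25. Serpinh1, the collagen chaperone HSP47, was named after its value was seen: it had 12.01 CPM on average in KAT7 mutant and 25.1 CPM in wild type (-1.06 ± 0.12, edgeR adjusted p = 9.18e-07).

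Of 21 tested matrix receptors, 5 fell and 1 rose, with a median of -0.15. The share called, 28.6%, was near the 28.9% over all tested genes. Itga3, an integrin subunit that pairs with beta 1 to bind laminins, fell by 1.06, Itga9 by 0.77, the collagen receptor Ddr1 by 0.62 and the fibronectin-binding integrin subunit Itgav by 0.36. The rise was in the syndecan gene Sdc3, by 0.21, which was named after its value was seen. Among 5 tested genes of hyaluronan turnover and link proteins, 0 fell and 1 rose, Cemip2, a hyaluronidase of the cell surface, by 0.39. Of 22 tested other proteoglycan and matricellular genes, 12 fell and 4 rose (72.7% called), with a median of -0.37. Spock3 fell by 1.52, the thrombospondin gene Thbs2 by 1.51 and the fibulin gene Fbln2 by 0.91, and Sparcl1, a relative of Sparc, rose by 1.13 where Sparc fell by 0.52.

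Of 27 tested matrix proteases and inhibitors, 6 fell and 5 rose (40.7% called), with a median of -0.04. The gelatinase gene Mmp2 fell by 1.34 and Mmp11 by 1.01, whereas the inhibitor gene Timp4 rose by 1.98 and Adamts18 by 0.81. All fold changes of these lists come from the same edgeR fit, with 28.9% of all tested genes called.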

How the data were processed

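The deposited table holds whole-number read counts per gene for 7 polyA RNA libraries, with an Entrez identifier and a gene length. The submitters' processing notes name featureCounts and mm9 for these counts; for aligner, annotation and strandedness the sources used here give nothing. The gene length in the deposited table was used only for RPKM and ratios per base. Columns were matched to samples through their descriptions. Symbols came from a RefSeq gene table of GRCm38.p6, which matched 24176 of 26286 identifiers (92.0%); it was used for names and gene order only, and the promoter coordinates are those of that build.

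Genes were filtered with filterByExpr by group (minimum count 10), which left 13681, scaled by TMM and tested by quasi-likelihood F tests in edgeR 4.0.16 in R 4.3.3, two-sided, with genotype as the only term and Benjamini-Hochberg adjustment over all tested genes. SE is the absolute log2 fold change divided by the root of F. CPM use TMM-adjusted library sizes. The fit was tested on simulated counts. Libraries of a genotype differed beyond counting noise (chi-square of 2.03 to 3.62 per gene over the 9 pairs), and each was kept as a sample. The replicates are separate animals by the design text. The number of reads limits the precision of scarce genes.

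Of the tested genes, 1 entered the counts, sums and medians but is not reported by itself. The genes, lists and comparisons were chosen with earlier results of these data known. Named genes were all called members, the 14 genes listed by name, the 10 most abundant per length, and up to 4 called genes per pathway list. Other genes of the set are named to account for each. Serpinh1, Sdc3 and the cell type markers given by name were added after their values were seen. Values by library were given for the 12 called genes with the largest changes, the lecticans, link proteins and tenascins, and, chosen after their values were seen, for several further genes, among them Col5a1, Lamb1, Lamc1, Col4a1, Col4a2, Agrn and Sparc. Alternatives were RLE or no composition factors, no filter or 1 CPM in 3 libraries, DESeq2 1.42.0, limma-voom 3.58.1, the replicate number as a block and each library left out.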

Additional observations from a re-analysis of the deposited data

Results flagged for a closer look

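In the KAT7 mutant group, 3 values among the 44 tested genes stood apart from the other libraries of the group, by a gap above Dixon's 95% value for 4 samples. Chance gives such a gap in about 1 in 20 groups. Col19a1 was high in KAT7 mutant replicate 2, at 3.13 CPM against 1.96 to 2.10 CPM in the other KAT7 mutant libraries, and still below the wild type libraries. Col27a1 was low in KAT7 mutant replicate 2, at 0.580 CPM against 1.10 to 1.18 CPM. Lamb2 was low in KAT7 mutant replicate 4, at 1.71 CPM against 2.55 to 2.72 CPM. The wild type group of 3 was not examined in this way.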

How the results depend on the processing

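Under 14 alternatives the count of matrix genes called higher in KAT7 mutant stayed at 3, and the count called lower was 18 to 20, against 19. Of the 22 called genes, 21 kept their call and direction under every alternative, the exception being Nid1, and of 22 uncalled genes 21 stayed uncalled wherever they were tested, the exception being Col6a1; Col27a1 was tested in 10 and Col6a3 in 12 of the alternatives. The median log2 fold change was -0.26 without a count filter, where all 69 genes were tested and Col11a1 was the added lower call, and -0.41 to -0.34 with 1 library left out. Replicate numbers did not pair the samples: deviations of same-numbered libraries correlated at 0.0181, 0.0118 and -0.0292. With the replicate number as a block, 3 genes were called higher and 19 lower, with a median of -0.39, and over all genes 1460 were called higher and 1943 lower, against 1793 and 2163. With 1 library left out these were 1273 to 1776 and 1826 to 2212. Depth limits the genes under about 1 CPM, and 25 of the 69 were not tested for that reason.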
